A study of Vitis vinifera with 7 samples.

Results

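A set of 113 probes stood at a high signal at veraison after a low one in green grape berries and was still at that signal in ripe berries. The 113 probes were picked from 28811 on the array (0.392%) by their own values. The lowest of the 3 veraison values had to lie at least 4 log2 units (16-fold) above the highest of the 3 green values, and the ripe value had to lie less than 1 log2 unit (2-fold) from the veraison mean. Every array entered that choice, so the size of the rise and its persistence describe the probes and are not tested. The 113 are called the kept probes here. Of all probes, 202 (0.701%) passed the gap of 4. Besides the 113, these were 38 that stood at least 1 log2 unit higher in ripe berries than at veraison (risen again) and 51 that stood at least 1 lower (fallen back).

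Berry tissue of Vitis vinifera cv. Sauvignon blanc, a white-berried cultivar, was sampled at the green stage (EL-31, 3 arrays), at veraison (EL-34, 3 arrays) and when ripe (EL-38, 1 array). EL numbers are the steps of a standard scale of grapevine growth. The tissue of each stage was ground and pooled, and the arrays of a stage are RNA extractions from 1 pool, numbered 1 to 3. Their spread therefore holds extraction and hybridisation error and leaves out differences between vines, bunches and berries, and the ripe stage has no spread of its own. In tissue samples, a larger share of cells that hold a transcript and more transcript per cell cannot be told apart.

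Veraison is the point at which a grape berry stops being a hard, acid, photosynthetic organ and starts to soften and to import sugar. Genes known to come on at this time in grape berries include sugar transporters, wall-loosening enzymes such as expansins, pathogenesis-related proteins such as thaumatin-like proteins and chitinases, and late transcription factors of the NAC and MYB families. Some of these stay on until harvest and others peak early. No probe identifier matched the gene table used here (0 of 28811), so the probes below carry identifiers only, and none is assigned to any of these families. Tissue markers could for the same reason not be checked against the label.

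The kept probes were moderately dim in green berries and among the bright probes from veraison on. Their median log2 signal was 7.11 over the green means, 13.27 over the veraison means and 13.27 on the ripe array. Ranked against all probes of the same array, the median kept probe stood at the 33.1, 31.9 and 32.5 percentile on the green arrays, at 91.3, 91.9 and 91.4 on the veraison arrays and at 91.4 on the ripe array. The rise from green to veraison had a median of 5.70 log2, or 52.1-fold, and ran from 4.31 to 9.68, against a median of 0.08 over all 28811 probes. It reached 32-fold in 82 kept probes, 64-fold in 45, 128-fold in 23, 256-fold in 10 and 512-fold in 7. The limma fit over all probes, with Benjamini-Hochberg adjustment and a call at an adjusted p under 0.05, called 26.4% of all probes higher at veraison, and all 113 were among them, as the rule requires in effect. The corresponding share of all probes was 30.7% for ripe against green, where again all 113 were called higher.

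**Figure D1:**
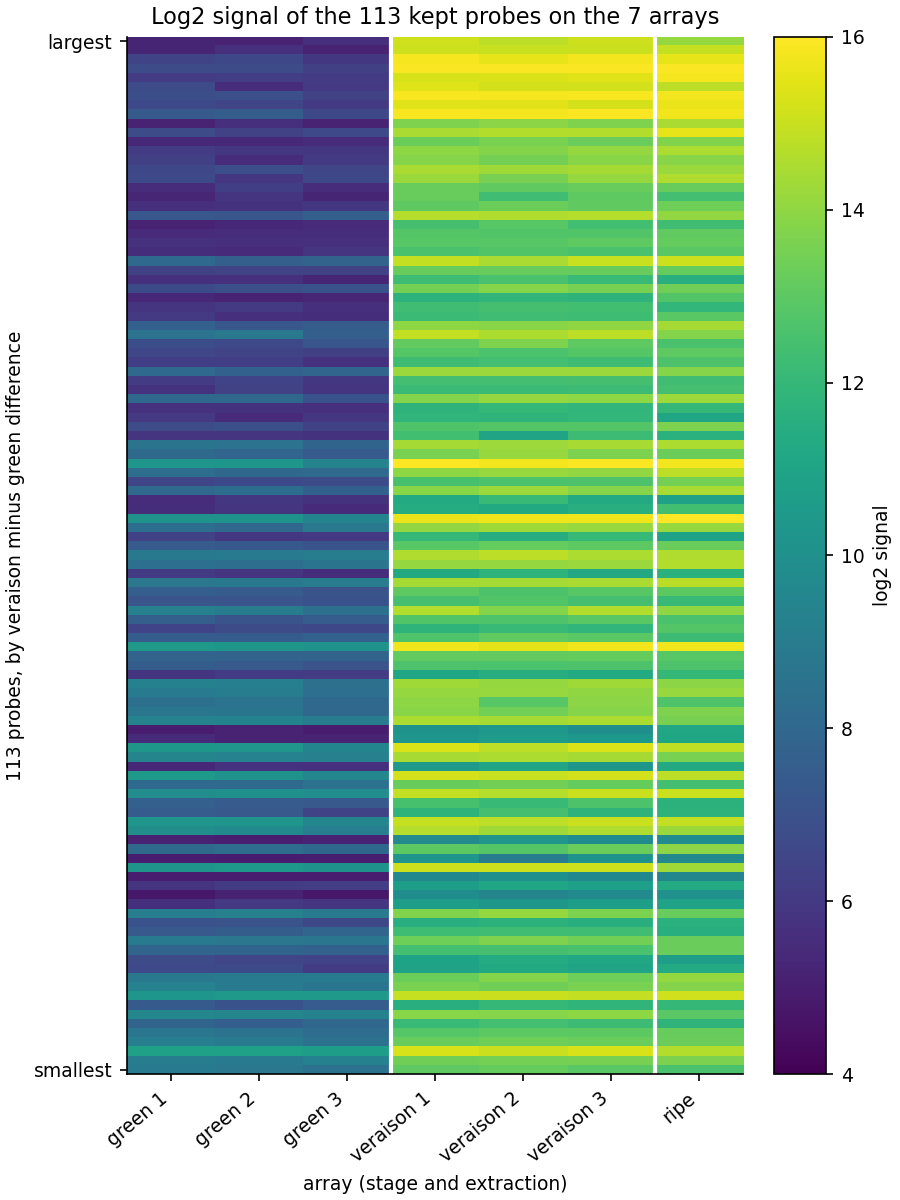
Log2 signal (colour, 4 to 16) of the 113 kept probes, 1 row each, on the 3 green, 3 veraison and 1 ripe arrays, ordered from the largest to the smallest difference between veraison and green. The step from the green to the veraison columns is the one the rule asked for, while the veraison and ripe columns keep the same colours, with medians of 13.27 at both stages.

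The 2 probes with the largest rise came on from close to the bottom of the scale. VitusP00253650 had log2 signals of 5.22, 5.17 and 5.61 in green berries, 15.15, 14.80 and 15.10 at veraison and 14.10 in ripe berries. It rose 822-fold (9.68 log2) and stood 0.92 lower in ripe berries than at veraison, close to the limit of 1. VitusP00163562 had 5.26, 5.64 and 5.21 in green berries, 15.07, 14.99 and 15.04 at veraison and 14.92 in ripe berries. Both lay under the 17th percentile of every green array (at most 15.7 for the first and 16.6 for the second) and above the 98th percentile of every veraison array (at least 98.9 and 99.2).

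Most of the other large rises ended near the top of the scale. VitusP00145266 had 6.45, 6.61 and 5.93 in green berries, 15.84, 15.54 and 15.79 at veraison and 15.54 in ripe berries. For VitusP00219041 the values were 6.72, 6.78 and 6.27 in green berries, 15.94, 15.93 and 15.92 at veraison and 15.93 in ripe berries. It was the brightest kept probe at veraison, and its veraison and ripe values cannot be separated on this scale, whose highest value in the whole table was 15.99. VitusP00016075 gave 6.07, 6.19 and 6.14 in green berries, 15.28, 15.35 and 15.42 at veraison and 15.82 in ripe berries. Here the ripe value was above all 3 veraison values. VitusP00204719 gave 6.73, 5.54 and 5.98 in green berries, 15.39, 15.21 and 15.17 at veraison and 14.82 in ripe berries, and its veraison extractions differed less from each other (SD 0.12, n = 3) than its green extractions did (SD 0.60, n = 3).

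The remaining 4 of the 10 largest rises were 9.16, 8.99, 8.69 and 8.42 log2. VitusP00163588 had 6.90, 6.92 and 6.32 in green berries, 15.87, 15.85 and 15.91 at veraison and 15.81 in ripe berries. VitusP00071863 stood at 6.63, 6.49 and 6.03 in green berries, at 15.40, 15.48 and 15.24 at veraison and at 15.63 in ripe berries. VitusP00209344 stood at 7.41, 7.54 and 6.59 in green berries, at 15.89, 15.81 and 15.91 at veraison and at 15.74 in ripe berries. These 3 were above 15 from veraison on. VitusP00279470 had the lowest veraison signal of the 10, with 5.19, 5.60 and 5.19 in green berries, 13.67, 13.89 and 13.69 at veraison and 14.50 in ripe berries, and its ripe value was above all 3 veraison values.

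A minority of the kept probes were dim on every green array by the cut used here. On all 3 green arrays, 34 of the 113 (30.1%) lay below the array's 25th percentile, compared with 22.8% of all probes. A further 12 (10.6%) lay above the median of every green array, compared with 48.3% of all probes, so these were raised from an already middling signal. No detection flag was used, so a dim signal is not shown to be absence of the transcript, nor a signal above the cut its presence. The 34 dim probes rose by a median of 6.38 log2 to a median veraison signal of 12.07. The 12 bright ones rose by a median of 5.0 to a median of 15.10, and the 67 in between by 5.53 to 13.53. A probe that starts higher has less of the scale above it, and the rule of 4 log2 units caps the starting signal.

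Among the 12 that were already above the median in green berries, VitusP00182697 started highest and VitusP00204705 ended highest at veraison. VitusP00182697 had 10.85, 10.88 and 10.69 in green berries, 15.29, 15.05 and 15.28 at veraison and 14.60 in ripe berries. VitusP00204705 had 10.25, 10.29 and 9.38 in green berries, 15.96, 15.79 and 15.95 at veraison and 15.80 in ripe berries. The first rose 21.1-fold. The second rose 60.9-fold as measured, with veraison values at the top of the scale. From such a start the scale leaves no room for rises as large as those of the 10 probes above.

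The dimmest kept probes at veraison formed the other end of the range. VitusP00254469 had 4.78, 5.13 and 4.77 in green berries, 9.85, 9.48 and 9.69 at veraison and 10.06 in ripe berries. VitusP00087728 had 4.92, 4.94 and 4.95 in green berries, 9.62, 10.02 and 9.59 at veraison and 9.50 in ripe berries. VitusP00285307 had 5.10, 5.02 and 5.14 in green berries, 9.68, 10.26 and 9.85 at veraison and 9.82 in ripe berries. These started at the floor of the arrays, below the 7th percentile of every green array (at most 6.26, 2.54 and 5.56), and reached only the middle of the veraison arrays, between the 52.5 and 60.1 percentile. The other 2 of the 5 dimmest, VitusP00124156 and VitusP00124171, lie 2 rows apart in the table. VitusP00124156 had 4.98, 4.95 and 5.03 in green berries, 10.25, 9.08 and 10.14 at veraison and 9.75 in ripe berries, and VitusP00124171 had 4.94, 5.13 and 4.94, then 10.12, 10.39 and 9.99, then 11.13. At veraison extraction 2 they parted, the first being lowest there and the second highest.

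The ripe array was part of the choice, so its distance from veraison describes the kept probes and does not test how steady the new level was. The ripe value was above all 3 veraison values in 48 kept probes, below all 3 in 44 and between them in 21. Ripe minus veraison had a median of 0.00 log2 (ripe median 13.27, veraison median 13.27), with 57 probes higher and 56 lower, while over all probes the median was 0.08. In 75 of the 113 the ripe value was within 0.5 of the veraison mean, in 40 within 0.25 and in 16 within 0.1. The quartiles of ripe minus veraison were -0.33 and 0.31 for the kept probes and -0.33 and 0.46 for all probes. A distance under 1 was common on the array, being met by 82.8% of all probes. It was met by 55.9% of the 202 probes that passed the gap. The fit called 24.4% of all probes between ripe and veraison, and 25 of the 113 kept probes, 14 higher and 11 lower in ripe berries. Since the limit of 1 was part of the choice, nothing is read from that count. Leaving out a single green or veraison array moved it in the same direction as the count over all probes.

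**Figure D2:**
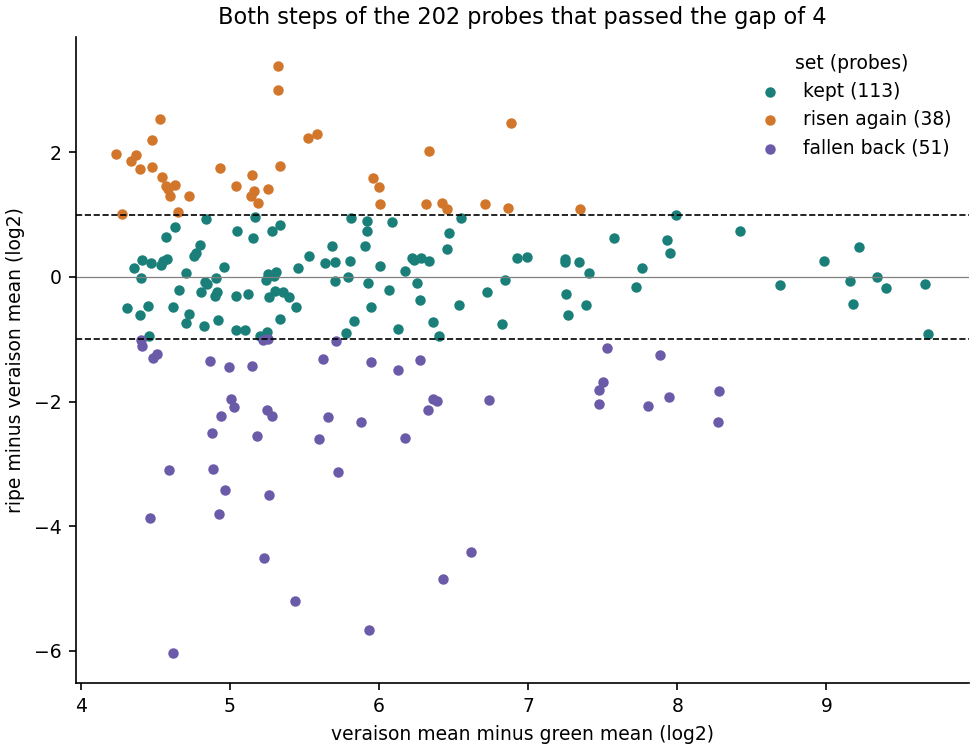
Ripe minus veraison mean (vertical axis, log2) against veraison mean minus green mean (horizontal axis, log2) for the 202 probes that passed the gap of 4, with dashed lines at the limits of 1 and -1. The 113 kept probes fill the band between the lines along the whole range of rises, and every difference above 8.28 on the horizontal axis belongs to kept probes.

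The steadiest kept probes were found at several signal levels. VitusP00158648 had 8.33, 7.99 and 8.81 in green berries, 14.06, 14.30 and 14.14 at veraison and 14.17 in ripe berries. VitusP00091723 had 10.28, 10.27 and 9.51 in green berries, 14.96, 14.81 and 15.02 at veraison and 14.91 in ripe berries. VitusP00083573 had 7.55, 7.36 and 7.09 in green berries, 12.66, 12.58 and 12.63 at veraison and 12.65 in ripe berries. In all 3 the ripe value fell within the range of the veraison extractions, as it did in VitusP00219041 and VitusP00138787, the other 2 of the 5 closest.

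The limits of the choice cut through a continuum. Nearest to the gap of 4 on the inside were VitusP00159203 (gap 4.03), VitusP00263276 (4.05) and VitusP00124156 (4.05), and just outside were VitusP00029977 (just under 4), VitusP00091641 (3.96) and VitusP00153040 (3.93). At the upper limit for the ripe value, VitusP00138800 (0.99), VitusP00124171 (0.96) and VitusP00183539 (0.95) were kept, and VitusP00039444 (1.01), VitusP00216709 (1.05) and VitusP00146778 (1.08) were counted as risen again. At the lower limit, VitusP00204785 (-0.95), VitusP00098115 (-0.95) and VitusP00112987 (-0.94) were kept, and VitusP00207388, VitusP00007840 (-1.01) and VitusP00201862 (-1.01) were counted as fallen back. Probes on the 2 sides of a limit thus differed by less than the spread between extractions of many of them.

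The kept share was larger at higher veraison signals, which the choice itself used. Among the 202 probes that passed the gap, 36.0% of the 25 with a veraison mean under 11 were kept, as were 35.9% of the 39 from 11 to 12, 47.2% of the 53 from 12 to 13, 65.1% of the 43 from 13 to 14 and 80.8% of the 26 from 14 to 15. All 16 probes at 15 or above were kept. The probes that rose again fell off in the same direction, with 9, 16, 10, 3, 0 and 0 in these bands, while the probes that fell back numbered 7, 9, 18, 12, 5 and 0. The median veraison signal was 13.27 for the kept probes, 11.50 for those that rose again and 12.76 for those that fell back. For the 16 brightest a further rise of 1 log2 unit would have passed the highest value in the table (15.99), so they could not have been placed among the probes that rose again. Of the 186 with room for such a rise, 97 were kept (52.2%). Their median green signal also differed, at 7.11 for the kept probes, 6.24 for the risen and 6.41 for the fallen. These differences were not tested, since the same arrays define the sets, and the part that saturation of the signal has in them was not tested.

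**Figure D3:**
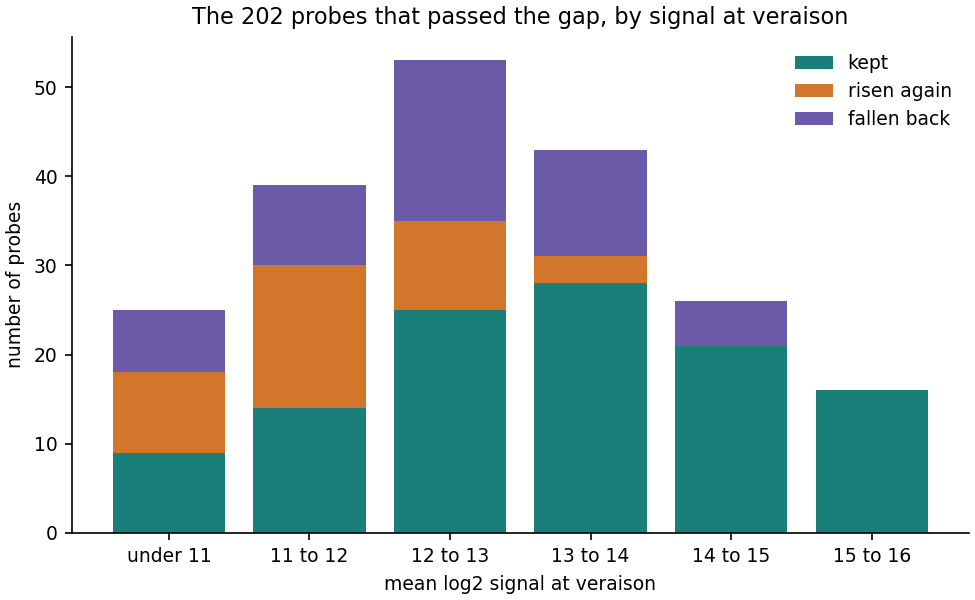
Number of probes (vertical axis) among the 202 that passed the gap of 4, by mean log2 signal at veraison (horizontal axis), stacked as kept, risen again and fallen back. Kept probes make up 36.0% of the lowest band and all 16 probes of the highest, and no probe at 14 or above rose again.

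Extractions of a stage did not spread equally over the kept probes. The median SD between extractions was 0.133 log2 at veraison and 0.208 in green berries (n = 3 each) for the kept probes, compared with 0.188 and 0.138 for all probes. This was not particular to the kept probes. The medians were 0.126 at veraison and 0.203 in green berries for the risen, and 0.151 and 0.194 for the fallen. A low veraison extraction counts against a probe in the choice of all these sets. Green extraction 3 lay at least 0.5 below the mean of extractions 1 and 2 in 22 kept probes (19.5%) and at least 0.5 above it in 1, while over all probes these shares were 6.12% and 2.67%. The choice uses the highest green value, so a low extraction 3 does not count against a probe and a high one does. In the other sets, 4 of the 51 probes that fell back (7.84%) and 2 of the 38 that rose again (5.26%) were low by 0.5 or more in green extraction 3. Without a limit on size the sets were closer, since green extraction 3 lay below the mean of the other two in 65.5% of the kept probes, 68.4% of the risen, 51.0% of the fallen and 45.6% of all probes. It was the lowest of the 3 in 56.6% of the kept, 55.3% of the risen, 47.1% of the fallen and 34.8% of all probes. Differences between the sets, and the part that the choice has in them, were not tested.

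By green signal, extraction 3 lay below the mean of extractions 1 and 2 in 11 of the 12 kept probes above the green median, in 45 of the 67 in between and in 18 of the 34 dim ones. Over all probes the shares in these classes were 42.6%, 47.0% and 50.1%. For the probes that rose again they were 70.0% of the 20 in between and 66.7% of the 18 dim ones. For those that fell back they were 46.4% of the 28 in between and 54.5% of the 22 dim ones. VitusP00204785 had 8.58, 8.82 and 7.61 on the green arrays, VitusP00150919 had 8.06, 8.04 and 7.05, and VitusP00183661 had 7.50, 7.35 and 6.48. These 3 had the lowest extraction 3 relative to the other two and were picked for that after their values had been seen. Without green extraction 3 the choice found 118 probes. All 113 were among them by construction, since leaving out a green array cannot raise the highest green value.

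Veraison extraction 2, which stood apart from extractions 1 and 3 over the whole array, departed by 0.5 or more in 15 kept probes, 9 lower and 6 higher. These are 7.96% and 5.31% of the kept probes, compared with 12.02% and 12.4% of all probes. A low extraction counts against a probe in the choice. Without a limit on size, extraction 2 was the lowest or highest of the 3 in 87.6% of the kept probes and 87.9% of all probes. The 5 kept probes with the largest SD at veraison were also the 5 in which extraction 2 lay furthest from the others, and in all 5 it was the low one. VitusP00028417 had 8.43, 8.55 and 8.07 in green berries, 13.98, 12.90 and 13.91 at veraison and 12.71 in ripe berries. VitusP00204561 had 9.24, 9.09 and 8.43 in green berries, 14.60, 13.75 and 14.60 at veraison and 13.99 in ripe berries. VitusP00072151 had 5.30, 5.84 and 5.26 in green berries, 13.22, 12.30 and 13.05 at veraison and 12.40 in ripe berries. In these 3 the ripe value was nearer to extraction 2 than to extractions 1 and 3. VitusP00287430 had 5.85, 5.80 and 5.78 in green berries, 12.38, 11.01 and 12.24 at veraison and 11.67 in ripe berries, and there, as in VitusP00124156, the ripe value was nearest to extraction 3. Without extraction 2 the choice found 117 probes, 107 of the 113 among them.

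At the other extreme were kept probes, chosen for the smallest veraison SD, whose veraison extractions nearly coincided. VitusP00208061 had 7.82, 7.82 and 7.83 in green berries, 13.11, 13.13 and 13.15 at veraison and 12.91 in ripe berries. VitusP00248572 had 6.35, 6.46 and 6.30 in green berries, 13.23, 13.21 and 13.20 at veraison and 13.17 in ripe berries. VitusP00103529 had 10.20, 10.42 and 10.15 in green berries, 15.08, 15.10 and 15.07 at veraison and 14.29 in ripe berries, and VitusP00118446 had 8.11, 7.75 and 7.90, then 14.18, 14.20 and 14.20, then 13.83. In VitusP00103529 the ripe value was 0.79 below veraison, although the 3 veraison extractions differed by an SD of 0.02 only.

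The kept probes were not scattered evenly through the identifiers, a feature the choice did not use. The table is ordered by identifier, with a median step of 10 between neighbouring numbers. What that order stands for is not given in the sources used here. Of the 113 kept probes, 14 (12.4%) were directly next to another kept probe, in 2 runs of 3 and 4 runs of 2. Kept probes made up 0.392% of all rows. Shares of all rows given here are per single row, while a probe has a row on either side, so the like share is larger. The share with another kept probe within 10 rows was 20.4%. So wide a window holds many rows, and no matching share was worked out for it. The risen and the fallen also held adjacent probes of their own set, but only 1 pair each. Next to another of their own set were 2 of the 38 probes that rose again (5.26%), a set that made up 0.132% of all rows, and 2 of the 51 that fell back (3.92%), which made up 0.177%. Within 5 rows the shares were 16.8% for the kept probes, 10.5% for the risen and 15.7% for the fallen, again without a matching share and for sets of unequal size.

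The rows beside the kept probes also rose more often. Of the 206 rows directly beside a kept probe that had not passed the gap of 4 themselves, 52 (25.2%) were called at least 2-fold higher at veraison (limma, adjusted p under 0.05), against 9.95% of the 28609 probes that had not passed the gap and 10.6% of all 28811 probes. At least 4-fold higher, called or not, were 27 of them (13.1%), against 3.03% of those 28609 probes. A fall of at least 2-fold was seen in 16 of these rows (7.77%), against 12.7%. The share called at least 2-fold higher was 16.8% for rows 2 away, 15.3% for rows 3 away, 11.3% for rows 5 away, 11.9% for rows 10 away, 12.4% for rows 20 away and 9.05% for rows 50 away. Rows beside the probes that rose again (17 of 72, 23.6%) and beside those that fell back (28 of 97, 28.9%) had similar shares, so the pattern was not seen for the kept probes alone. When only kept probes outside the runs were used, 47 of 195 adjacent rows (24.1%) were called at least 2-fold higher. Over the whole table, Pearson's r of the veraison minus green difference between adjacent rows was 0.14 (28810 pairs), and it was 0.00 between rows 20 apart. Adjacent rows share the arrays and may share sequence, so they are not independent.

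**Figure D4:**
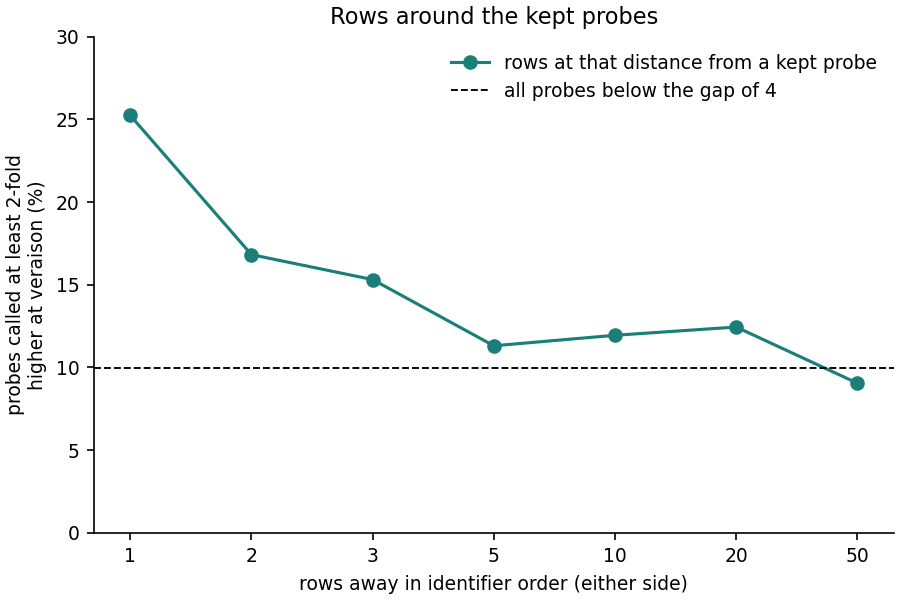
Share of probes called at least 2-fold higher at veraison (vertical axis, %) among rows at a given distance from the 113 kept probes in identifier order (horizontal axis, distances listed and not to scale), leaving out all rows that passed the gap of 4. The share is 25.2% beside the kept probes and between 9.05% and 12.4% from 5 rows away on, with the dashed line at 9.95% for all probes that had not passed the gap.

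The run with the largest rises lay at VitusP00163562, VitusP00163576 and VitusP00163588. VitusP00163576 had 10.51, 10.37 and 10.18 in green berries, 15.73, 15.50 and 15.76 at veraison and 15.75 in ripe berries, and its 2 neighbours are given above. The rises were 9.66, 5.31 and 9.16 log2, and the smallest belonged to the probe that was brightest in green berries. The next row, VitusP00163597, passed the gap too and rose again, with 7.70, 8.16 and 7.55 in green berries, 12.88, 12.98 and 12.97 at veraison and 14.24 in ripe berries. On the other side, VitusP00163549 had 6.21, 6.21 and 6.11 in green berries, 12.79, 12.99 and 12.87 at veraison and 14.05 in ripe berries. These flanking probes, named here because of where they lie, stood 1.29 and 1.17 log2 units higher in ripe berries than at veraison, while the 3 in the middle were level near the top of the scale. The row between, VitusP00163558, hardly differed, at 10.55, 10.38 and 10.61 at veraison against 10.17, 10.14 and 10.51 in green berries.

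The second run of 3 consisted of VitusP00138777, VitusP00138787 and VitusP00138800. VitusP00138777 had 8.08, 7.63 and 7.84 in green berries, 14.89, 14.47 and 14.97 at veraison and 15.08 in ripe berries. VitusP00138787 had 9.14, 9.0 and 8.47 in green berries, 13.23, 13.34 and 13.27 at veraison and 13.26 in ripe berries. VitusP00138800 had 6.75, 6.31 and 6.66 in green berries, 14.50, 14.60 and 14.62 at veraison and 15.56 in ripe berries. They rose by 6.93, 4.41 and 8.0 log2, so adjacent rows did not share 1 size of response, and ripe minus veraison was 0.31, -0.02 and 0.99, so that the third probe lay at the limit of 1. The rows on each side, VitusP00138772 and VitusP00138804, rose by 1.39 and 1.31.

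Of the 4 runs of 2, the pair VitusP00204705 and VitusP00204719, both given above, was followed by probes with a large rise that fell short of the gap of 4 and with a lower ripe value. VitusP00204724 had 8.58, 8.19 and 7.95 in green berries, 12.76, 12.46 and 12.47 at veraison and 11.23 in ripe berries. VitusP00204746, 3 rows past the pair, had 8.83, 8.78 and 8.28 in green berries, 13.80, 12.63 and 13.41 at veraison and 11.51 in ripe berries. Ripe minus veraison was -1.33 and -1.77 log2 in these, while in the pair itself, near the top of the scale, it was -0.10 and -0.43.

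The pair VitusP00280155 and VitusP00280170 differed least in its rise among the 4. VitusP00280155 had 9.28, 9.19 and 8.44 in green berries, 14.29, 14.10 and 14.31 at veraison and 13.91 in ripe berries. VitusP00280170 had 9.02, 9.08 and 8.38 in green berries, 14.09, 14.15 and 14.01 at veraison and 14.13 in ripe berries. Their rises were 5.26 and 5.25 log2, and green extraction 3 was the low one in both. The pair VitusP00123063 and VitusP00123074 rose by 5.46 and 5.24, and VitusP00263276 and VitusP00263285 by 4.47 and 7.25. A rise of 3.95 in VitusP00263295, the row after that last pair, was followed by a ripe value 0.66 below veraison. Whether probes in a run share sequence, so that 1 transcript could bind several of them, was not tested.

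**Figure D5:**
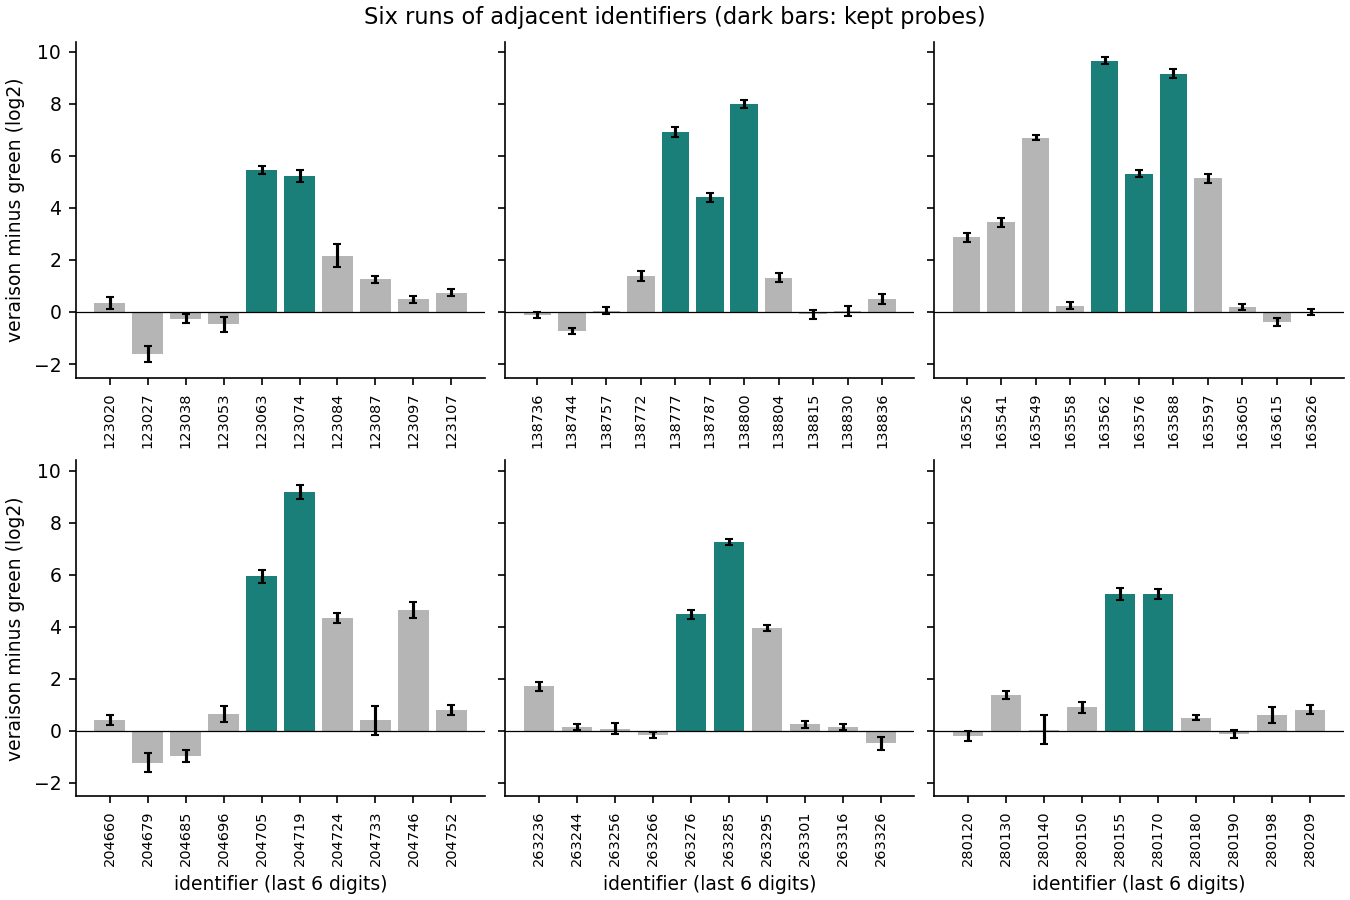
Veraison minus green difference (vertical axis, log2, bars with the standard error of the limma fit) for the 6 runs of adjacent kept probes (dark bars) and the 4 rows on each side of them (grey bars), by identifier (horizontal axis). The panels were picked because their kept probes are adjacent, and the rows directly beside them differed by 0.24 and 5.14 in the third panel, by -0.48 and 2.17 in the first and by 0.90 and 0.50 in the last.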

How the data were processed

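The values used were log2 signals on 1-colour NimbleGen arrays, 1 per probe, summarised with RMA per the submitters' processing notes and used as deposited. Settings, version and scanning are not given in the sources used here, and base 2 was inferred from the range of 4.06 to 15.99. Array medians ran from 9.17 to 9.22, and no further scaling was applied. Detection and saturation flags were not used. Precision is limited by how few arrays there are.

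Kept probes were chosen by the stated limits, with earlier results of these data known, as were the measures described. Differences were fitted with limma 3.58.1 in R 4.3.3 (lmFit and eBayes, stage as the only term, all 7 arrays, two-sided, Benjamini-Hochberg over 28811 probes), tested on simulated data. The single ripe array was assumed to vary like the others. Named probes were those with the largest rise (10), the highest and lowest veraison signal (5 each), the ripe value closest to veraison (5), the 3 on each side of each limit, the largest and smallest veraison SD (5 each) and the largest departure of veraison extraction 2 (5). Runs and their flanks were named after their values had been seen. No probe sequence or position was used. Planned descriptions by gene product and of tissue markers were not made, as no identifier matched the gene table.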

Additional observations from a re-analysis of the deposited data

How the results depend on the processing

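The number of kept probes, 113, was set by its limits. A gap of 3 gave 203 and a gap of 5 gave 66, and a ripe distance under 0.5 gave 75. The other planned choices gave 97 to 149, among them 97 with 50 added before the logarithm, which also lowered the median rise to 5.20 log2, against 5.70, by construction. Leaving out single arrays gave 114 to 118 probes, a median rise of 5.62 to 5.73 and a median ripe minus veraison difference of 0.00 to 0.04. Leaving out a green array cannot remove a kept probe. All 113 were called higher at veraison under every alternative.

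Kept probes called between ripe and veraison, 25 in the report, numbered 5 with the replicate block, 3 at an adjusted p of 0.01, 0 with limma's test against a 2-fold change, as a distance under 1 requires in effect, and 11 to 40 without single arrays. Over all probes the count for ripe against veraison, 7039, was 3468 with the replicate block, 3159 at an adjusted p of 0.01, 1004 against a 2-fold change and 4412 to 12989 without single arrays. The test against a 2-fold change called 3573 for veraison against green and 5281 for ripe against green, compared with 13881 and 15310. Between green and veraison arrays of equal replicate number, r of deviations was -0.21, -0.12 and 0.05, and not every array correlated best with its own number. With so few arrays these values can neither show nor exclude pairing by number. The count of rows beside kept probes called at least 2-fold higher, 52, was 35 to 55 under these settings, which for this count were chosen after seeing the data.

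For named probes, differences between veraison and green kept their call in all 616 recomputations, as rises of this size require in effect. Those between ripe and veraison lost a call in 37, gained one in 13 and kept their side in 566. Signals near 15.99 leave little room to rise, which limits what the ripe array can show for the 16 brightest kept probes.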
